A study of Caenorhabditis elegans with 12 samples.

Results

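The genes described here are those of the nematode Caenorhabditis elegans whose messenger RNA response to a mutation in eat-2 depended on a second mutation, in acs-20. Whole-worm RNA sequencing covered 4 genotypes with 3 libraries each, all grown at 20 °C to the late L4 larval stage: the double mutant eat-2(ad465); acs-20(tm3232) (strain DCL33), the single mutants eat-2(ad465) (strain DA465) and acs-20(tm3232) (strain DCL29), and wild-type (strain N2). All 12 libraries entered 1 model, and a gene was a member when its interaction, the eat-2 effect in acs-20 mutants (double mutant minus acs-20) minus the eat-2 effect with acs-20 intact (eat-2 minus wild-type), passed an adjusted p of 0.05. Of 14390 genes tested, 27 were members (0.188%), 20 with a positive interaction (0.139%) and 7 with a negative one (0.0486%). In 14 of the 27 a single mutant was shifted at least 2-fold and the double mutant held at most 50% of that log2 shift, as for dod-24 and the pharyngeal myosin gene myo-2. Each genotype was 1 strain, so the named alleles and any other difference between strains cannot be told apart. The labels do not say whether the 3 libraries of a genotype came from separate cultures, so p-values measure the spread between these libraries, which may be technical.

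EAT-2 is a nicotinic acetylcholine receptor subunit that the pharynx, the worm's feeding organ, needs for fast pumping. Its mutants eat slowly and are a standard model of dietary restriction. ACS-20 is a fatty acid transport protein and acyl-CoA synthetase needed for the barrier function of the cuticle, the collagen coat made by the epidermis. When a pair of mutations acts independently on a log scale, the double mutant carries the sum of the single-mutant changes. An interaction is the departure from that sum, and the shape of a gene over the genotypes says how it departs.

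The counts in genes ranged from 7558637 to 12016769 in double mutants, from 8253781 to 10630057 in eat-2, from 7116623 to 9517911 in acs-20 and from 10164893 to 10842659 in wild-type libraries. Reads that did not align uniquely made up 6.67% to 9.75% of the counted total in double mutants, 8.31% to 8.89% in eat-2, 5.21% to 5.86% in acs-20 and 5.97% to 9.99% in wild-type libraries. The eat-2 gene had 1 count over the 3 double-mutant libraries, 0 in eat-2 worms, 4 in acs-20 and 3 in wild-type, too few to check the labels. The acs-20 gene had mean levels of 79.4 CPM (counts scaled to library size) in double mutants, 95.5 in eat-2 worms, 104 in acs-20 and 115 in wild-type. The acs-20 effect on it was −0.27 in eat-2 mutants (adjusted p = 0.43) and −0.15 with eat-2 intact (adjusted p = 0.658). Its level therefore does not check the labels either. Its interaction was −0.11 (SE 0.19, adjusted p = 0.947). Adult cuticle collagen col-19, which comes on at the end of the last larval stage, had 274, 157 and 78.1 CPM (counts scaled to library size) in double mutants and 78.5, 79.5 and 40.97 in eat-2 worms, against 66.9, 409 and 63.9 in acs-20 and 309, 581 and 109 in wild-type. By this marker acs-20 replicate 2 and wild-type replicate 3 stood apart from their own genotypes, so each count of calls was also taken without them. These libraries were chosen after the data were seen. Double mutants also spread, from 78.1 to 274 CPM, but their libraries were left out only 1 at a time. All 27 members were also called in a fit with a stage score as a covariate, which made 116 calls. The score was the centred mean log2 CPM of 29 moulting-cycle and furrow collagen genes. It ran from −0.44 to 0.01 in double mutants and from −0.16 to 0.32 in wild-type. Since it differed in part by genotype, the fit cannot show that stage was controlled.

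Most genes called for an effect in 1 background had an estimate of the same sign in the other: 93.1% of genes called for the eat-2 effect in acs-20 mutants and 91.8% of those called with acs-20 intact. The eat-2 effect passed in 1863 genes in acs-20 mutants (12.9%) and in 1103 genes with acs-20 intact (7.67%). The genes called in both backgrounds numbered 703, 37.7% of the first set and 63.7% of the second, and 695 of them moved in the same direction. Of the 1560 genes called in only 1 background, 17 were called in the interaction, so the remainder were not shown to differ between backgrounds. The acs-20 effect passed in 304 genes in eat-2 mutants (2.11%) and in 318 with eat-2 intact (2.21%), with 128 shared and 126 of those in the same direction. Across all genes tested, which are not independent replicates, the eat-2 effects in the 2 backgrounds had a Pearson r of 0.603 and a Spearman rho of 0.51, and the acs-20 effects an r of 0.402 and a rho of 0.276. The interaction is a difference of differences and was measured less precisely, with a median SE of 0.275 on the log2 scale against 0.194 for the eat-2 effect with acs-20 intact.

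**Figure D1:**
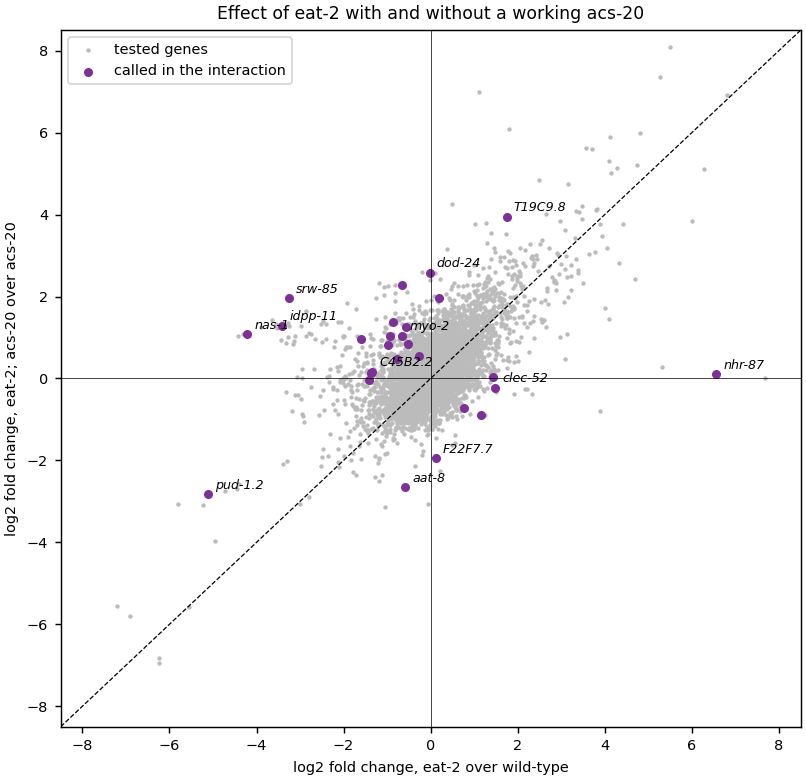
Log2 fold change of each tested gene for the eat-2 effect in acs-20 mutants (double mutant over acs-20, vertical axis) against the eat-2 effect with acs-20 intact (eat-2 over wild-type, horizontal axis), with the 27 genes called in the interaction in purple. A gene with equal effects lies on the dashed diagonal; the members lie off it, and 1 gene falls outside the axes.

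The members were sorted by shape from the differences of mean log2 CPM against wild-type. Rescue meant that a single mutant was shifted at least 2-fold and that the double mutant held at most 50% of that shift on the log2 scale; 14 members had this shape, 9 with the larger shift in acs-20 and 5 with the larger shift in eat-2. Rescue was assigned first. Masking meant that both single mutants were shifted the same way by at least 1.5-fold and that the interaction had the opposite sign. The size of the double-mutant shift had also to exceed 50% of the larger single-mutant shift, and 5 members were placed there. A further 3 fell under partial suppression and 5 under none of these classes. No member met the rule for more than additive. It asked for a double-mutant shift of at least 2-fold that exceeded the sizes of both single-mutant shifts added without sign. asg-1 failed only the 2-fold cut, with mean log2 shifts of 0.57 in double mutants, −0.27 in eat-2 and 0.03 in acs-20. By definition, each of the 20 members with a positive interaction lay above the signed sum of the fitted single-mutant changes. Among these, srw-85, C45B2.2, Y69H2.3, idpp-12 and T19C9.8 had a double mutant at least 2-fold above wild-type without meeting the rule. The shape names describe levels only. All 27 members are protein-coding genes, and on the linear CPM scale, where mutations would add rather than multiply, all 27 kept the sign of the interaction.

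**Figure D2:**
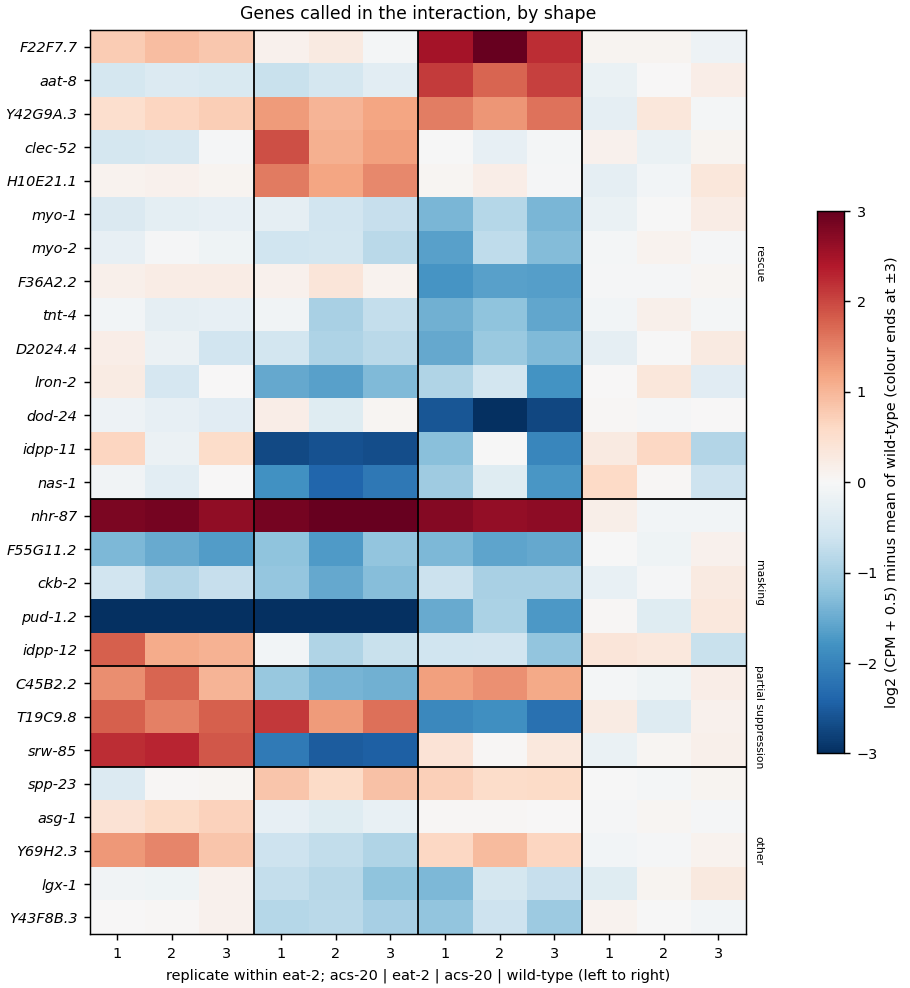
Heatmap of the 27 genes called in the interaction (rows, grouped by shape) in the 12 libraries (columns: eat-2; acs-20, eat-2, acs-20 and wild-type, 3 replicates each), coloured by log2 (CPM + 0.5) minus the wild-type mean, with colours ending at 3 either side. The rescue genes are shifted in 1 or both single mutants and lie nearer the wild-type colour in the double mutant.

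The clearest group held genes that fell or rose in the acs-20 single mutant and lay near wild-type when eat-2 was mutated too. The CUB-like domain gene dod-24, named as a gene downstream of the transcription factor DAF-16, had 103, 97.6 and 91.1 CPM in double mutants and 132, 89.9 and 120.0 CPM in eat-2 worms, against 19.1, 12.4 and 17.1 CPM in acs-20 and 119, 112 and 116 CPM in wild-type. All 3 acs-20 libraries lay far below the other 9. The acs-20 effect on dod-24 was a log2 change of −0.23 in eat-2 mutants (adjusted p = 0.54) and −2.84 with eat-2 intact (adjusted p = 6.1e-07), an interaction of 2.61 (SE 0.22, adjusted p = 8.64e-05). F36A2.2 had the same shape, with 19.9 ± 0.611 CPM in double mutants, 19.9 ± 1.98 in eat-2 worms, 5.06 ± 0.263 in acs-20 and 17.3 ± 0.737 in wild-type (SD, n = 3 each). Its interaction was 1.77 (SE 0.17, adjusted p = 0.000269). F36A2.2 overlaps exons of F36A2.3 on the opposite strand, and the strand setting of the counting is not given, but F36A2.3 itself had an interaction of 0.04 (adjusted p = 0.982). D2024.4, named after its values were seen, was also lowest in acs-20, at low level. It had 5.43, 4.02 and 2.94 CPM in double mutants, 3.02, 2.21 and 2.45 in eat-2 worms, 1.27, 1.85 and 1.54 in acs-20, and 3.73, 4.61 and 5.72 in wild-type. Unlike dod-24, D2024.4 was also lower in eat-2 than in wild-type, by a log2 change of −0.88 (adjusted p = 0.0638). Its interaction was 2.26 (SE 0.40, adjusted p = 0.0366).

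A pair of genes that rose in the acs-20 single mutant were likewise lower, at or nearer to the wild-type level, in the double mutant. The amino acid transporter family gene aat-8 had 2.29, 2.53 and 2.45 CPM in double mutants and 2.05, 2.33 and 2.73 CPM in eat-2 worms, against 16.7, 12.95 and 16.3 CPM in acs-20 and 3.01, 3.58 and 4.11 CPM in wild-type. F22F7.7 had 10.5, 11.69 and 10.9 CPM in double mutants, 6.51, 7.33 and 5.75 in eat-2 worms, 35.8, 62.04 and 29.7 in acs-20, and 6.32, 6.31 and 5.31 in wild-type. In both genes the acs-20 libraries stood above all others. The interactions were −2.07 for aat-8 (SE 0.29, adjusted p = 0.00906) and −2.07 for F22F7.7 (SE 0.34, adjusted p = 0.028). The return was incomplete for F22F7.7, whose double mutant remained above wild-type by 0.88 on the log2 scale (adjusted p = 0.0248). Y42G9A.3 rose in both single mutants, with 20.8, 22.8 and 24.4 CPM in double mutants, 35.6, 29.7 and 33.7 in eat-2 worms, 42.8, 37.2 and 45.6 in acs-20, and 11.8, 18.5 and 13.8 in wild-type. Its interaction was −2.04 (SE 0.21, adjusted p = 0.000469), and the double mutant stayed 0.62 above wild-type (adjusted p = 0.0127).

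Of 50 gene lists examined, that of pharyngeal muscle was the only one with more than 1 member called by edgeR with all libraries; other lists had several calls in alternative fits, as described for the abu and pqn genes. Of 7 genes of that list tested, 3 had a positive interaction past the threshold and none a negative one, against 0.139% of all genes called positive. The median interaction of the 7 was 1.01, against −0.01 over all genes. Whether each listed gene marks only pharyngeal muscle was not tested. The 3 were myo-2 and myo-1, the pharyngeal myosin heavy chains, and tnt-4, a pharyngeal troponin T. myo-2 had 66.1, 76.2 and 71.3 CPM in double mutants, 51.5, 53.7 and 44.4 in eat-2 worms, 25.2, 46.4 and 31.6 in acs-20, and 75.8, 84.2 and 76.2 in wild-type. It fell in each single mutant relative to wild-type, by 0.66 in eat-2 (adjusted p = 0.0276) and by 1.19 in acs-20 (adjusted p = 0.00144). The double mutant differed from wild-type by −0.14 (adjusted p = 0.6), and the interaction was 1.71 (SE 0.24, adjusted p = 0.00906).

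For myo-1 the CPM were 65.3, 72.0 and 74.2 in double mutants, 73.3, 59.4 and 54.5 in eat-2 worms, 34.1, 48.9 and 34.1 in acs-20, and 77.1, 86.98 and 103 in wild-type, an interaction of 1.37 (SE 0.22, adjusted p = 0.0238). tnt-4 had 17.7, 15.5 and 15.9 CPM in double mutants, 17.5, 9.3 and 11.4 in eat-2 worms, 6.65, 7.84 and 6.03 in acs-20, and 17.7, 20.9 and 18.2 in wild-type, an interaction of 1.83 (SE 0.28, adjusted p = 0.0202). In both genes every acs-20 library lay below all others, and wild-type libraries were highest or level with the highest. The other 4 genes of the list did not pass: tni-4 had an interaction of 1.01 (adjusted p = 0.143), tnc-2 of 0.41, pqn-8 of 0.14 and mlc-5 of −0.20. pqn-8 is also counted among the abu and pqn genes. Summed over the list, double mutants held 278 to 289 CPM, eat-2 238 to 285, acs-20 191 to 221 and wild-type 303 to 329. None of 20 body wall muscle genes was called, with a median interaction of −0.15, and none of 7 pharyngeal gland genes, with a median of 0.11. DESeq2 called 0 of either list, and at an unadjusted p under 0.05 edgeR had 1 positive and 2 negative body wall muscle genes and 0 pharyngeal gland genes. In whole-worm RNA, fewer cells of a type and less RNA per cell cannot be told apart. The acs-20 replicate 2 library, which stood apart by col-19, was the highest acs-20 library for myo-2, myo-1 and tnt-4. Leaving it out therefore pushes their interactions up. Without it 3 pharyngeal muscle genes were called, as with wild-type replicate 3 left out too. Without eat-2 replicate 3 none of the 7 was called, and in each of the other fits without 1 library 1 to 3 were.

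**Figure D3:**
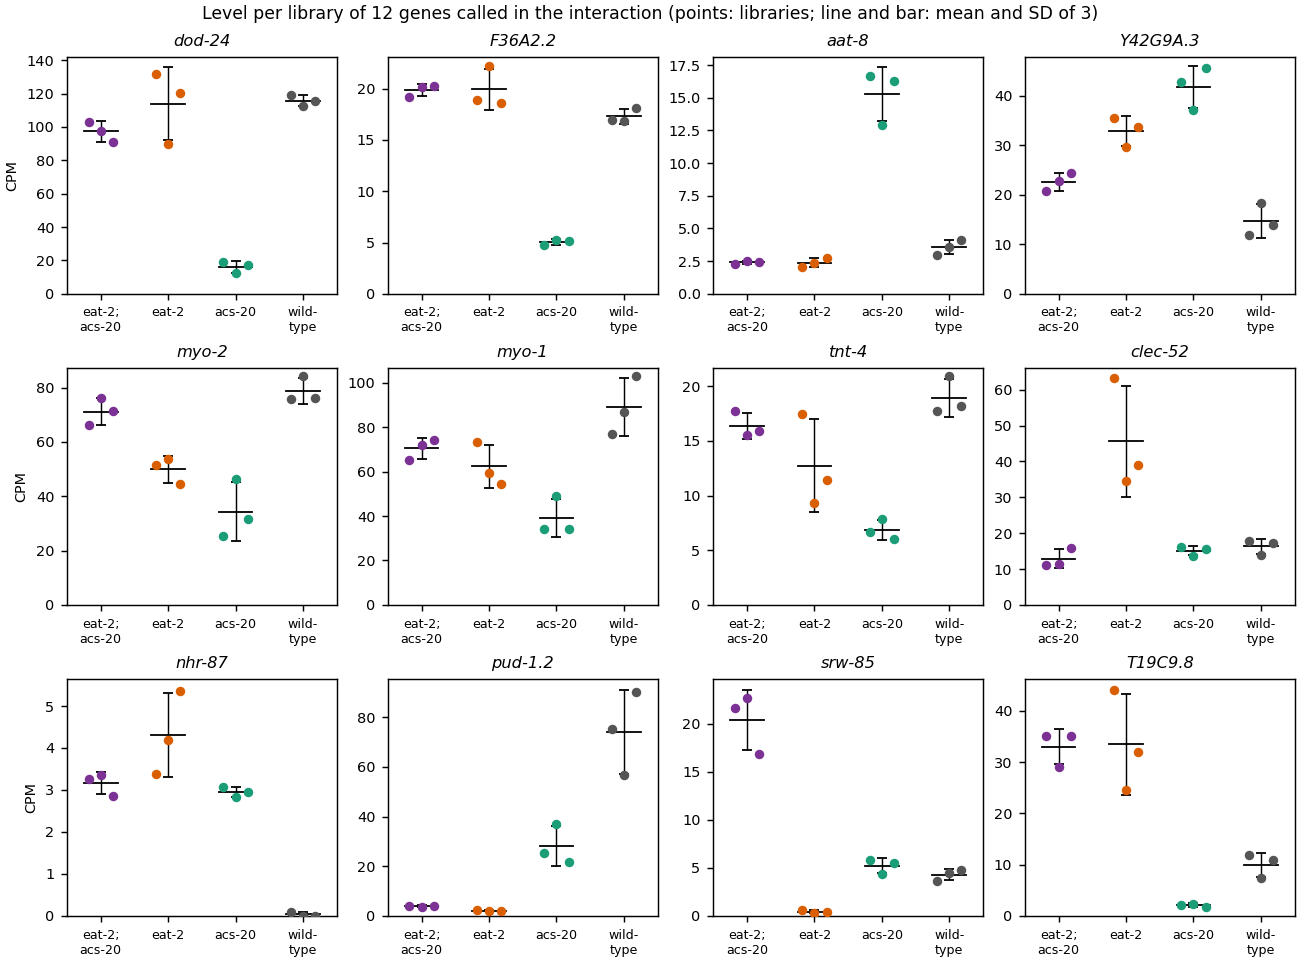
CPM in each library for 12 genes called in the interaction, 1 panel a gene with its own axis from 0, by genotype (eat-2; acs-20, eat-2, acs-20 and wild-type, left to right); points are libraries, and the line and bar are the mean and SD of 3. dod-24 and the pharyngeal myosin myo-2 are lowest in acs-20 with the double mutant near wild-type, whereas srw-85 is lowest in eat-2 and highest in the double mutant.

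A smaller set had its larger shift in the eat-2 single mutant and lay near wild-type in the double mutant. The C-type lectin gene clec-52 had 11.1, 11.5 and 15.9 CPM in double mutants, against 63.3, 34.4 and 39.1 CPM in eat-2 worms, 16.16, 13.6 and 15.7 CPM in acs-20, and 17.8, 14.03 and 17.1 CPM in wild-type. The eat-2 effect on clec-52 was −0.23 in acs-20 mutants and 1.48 with acs-20 intact (adjusted p = 0.00084), and the interaction was −1.71 (SE 0.31, adjusted p = 0.0483). It was the only one of 103 C-type lectin genes tested that was called. H10E21.1, named after its values were seen, had 7.72, 7.86 and 7.69 CPM in double mutants, 22.1, 17.1 and 20.3 in eat-2 worms, 7.5, 8.27 and 7.01 in acs-20, and 5.91, 6.78 and 9.23 in wild-type, an interaction of −1.41 (SE 0.25, adjusted p = 0.0366). Its opposite-strand neighbour H10E21.4 was also highest in eat-2, with means of 68.3 CPM in double mutants, 139 in eat-2 worms, 61.2 in acs-20 and 80.2 in wild-type, and without a stated strand setting their reads cannot be told apart.

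Genes low in eat-2 were lron-2, which encodes an extracellular leucine-rich repeat protein, the astacin metalloprotease gene nas-1, and idpp-11, the last named after its values were seen. In that order their mean log2 shifts from wild-type were −1.55, −2.91 and −2.98 in eat-2. In acs-20 they were also lower, by −1.12, −1.31 and −1.15, though no fitted acs-20 effect passed (adjusted p = 0.0884, 0.228 and 0.38). lron-2 had 17.1, 10.01 and 14.6 CPM in double mutants, 4.58, 4.3 and 5.46 in eat-2 worms, 7.5, 9.58 and 3.79 in acs-20, and 14.4, 18.2 and 11.2 in wild-type, an interaction of 2.57 (SE 0.41, adjusted p = 0.024). nas-1 was close to the detection limit, with 3 counts over the eat-2 libraries; its CPM were 1.93, 1.59 and 2.13 in double mutants, against 0.241, 0 and 0.0942 in eat-2 worms, 0.739, 1.52 and 0.28 in acs-20, and 3.42, 2.17 and 1.2 in wild-type. The double mutant held 18.2 times the eat-2 level of nas-1 (95% counting interval 5.94 to 90.9). idpp-11 had 11.9, 6.55 and 11.1 CPM in double mutants, 0.724, 0.814 and 0.754 in eat-2 worms, 2.85, 7.4 and 1.54 in acs-20, and 9.12, 11.8 and 3.81 in wild-type. For nas-1 and idpp-11 all eat-2 libraries lay below the other 9, and the interactions were 5.30 (SE 0.90, adjusted p = 0.0297) and 4.70 (SE 0.80, adjusted p = 0.0483).

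Of the members placed under masking, 4 had a double mutant shifted the same way as both single mutants, but by less than the sum of their changes. nhr-87, a nuclear hormone receptor gene, was nearly silent in wild-type and similar in all 3 mutant strains. Its CPM were 3.26, 3.37 and 2.86 in double mutants, 3.38, 4.19 and 5.37 in eat-2 worms, 3.06, 2.83 and 2.94 in acs-20, and 0.104, 0 and 0 in wild-type. In counts this was 98 in double mutants, 121 in eat-2 worms, 76 in acs-20 and 1 in wild-type over 3 libraries, so double mutants held 105 times the wild-type level with a 95% counting interval of 18.3 to 4170. The fitted interaction of −6.46 (SE 0.62, adjusted p = 0.000269) depends on how that single count is treated, and the interval covers counting error only. No other nuclear hormone receptor gene of 177 tested was called.

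pud-1.2, from a family named for genes up-regulated in daf-2 insulin receptor mutants, had 4.1, 3.56 and 4.17 CPM in double mutants, 2.29, 2.09 and 1.98 in eat-2 worms, 25.3, 37.1 and 21.6 in acs-20, and 75.1, 56.6 and 90.3 in wild-type. With the eat-2 mutation it fell by 2.83 on the log2 scale in acs-20 mutants and by 5.12 with acs-20 intact, an interaction of 2.29 (SE 0.35, adjusted p = 0.0202). pud genes have near-identical copies, so how reads were divided among them is uncertain. The choline kinase gene ckb-2 had 15.8, 12.6 and 14.5 CPM in double mutants, 10.4, 7.79 and 9.51 in eat-2 worms, 15, 11.8 and 11.9 in acs-20, and 20.3, 22.97 and 28.6 in wild-type, an interaction of 1.52 (SE 0.24, adjusted p = 0.0202). F55G11.2 was lower than wild-type to about the same level in all 3 mutants, with 7.84, 7.02 and 6.21 CPM in double mutants, 8.69, 6.05 and 8.85 in eat-2 worms, 7.92, 6.64 and 6.87 in acs-20, and 20.6, 19.1 and 22.96 in wild-type. Its interaction was 1.37 (SE 0.24, adjusted p = 0.039), and no mutant library overlapped wild-type.

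In another set the double mutant crossed to the far side of wild-type. srw-85, a member of a chemoreceptor family, had the smallest p of all members: its CPM were 21.6, 22.6 and 16.8 in double mutants, 0.603, 0.349 and 0.377 in eat-2 worms, 5.81, 4.35 and 5.47 in acs-20, and 3.63, 4.42 and 4.81 in wild-type. The eat-2 mutation raised srw-85 by 1.96 in acs-20 mutants (adjusted p = 3.1e-05) and lowered it by a log2 change of −3.26 with acs-20 intact (adjusted p = 2.13e-05), an interaction of 5.22 (SE 0.35, adjusted p = 9.95e-06). Double-mutant libraries lay above all others and eat-2 libraries below all others. C45B2.2 had 174, 224 and 134 CPM in double mutants, 30.04, 24.7 and 23.9 in eat-2 worms, 157, 171 and 145 in acs-20, and 63.5, 60.1 and 75.8 in wild-type. The eat-2 effect on C45B2.2 was 0.17 in acs-20 mutants (adjusted p = 0.556) and −1.34 with acs-20 intact (adjusted p = 0.000262), an interaction of 1.51 (SE 0.23, adjusted p = 0.0202). The shape rule placed both genes under partial suppression because it reads the size of the shift and not its side.

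The same holds for idpp-12, which the rule placed under masking: it had 17.6, 10.9 and 10.3 CPM in double mutants, 4.46, 2.33 and 2.83 in eat-2 worms, 2.96, 3.05 and 1.82 in acs-20, and 6.22, 6.02 and 2.81 in wild-type. All double-mutant libraries lay above the other 9, and the double mutant was above wild-type by 1.35 (adjusted p = 0.009), with an interaction of 2.92 (SE 0.49, adjusted p = 0.0292). Neither single mutant differed from wild-type past the threshold in idpp-12. T19C9.8 held the eat-2 level in the double mutant: its CPM were 34.99, 29.1 and 34.99 in double mutants, 44.0, 24.5 and 31.9 in eat-2 worms, 2.22, 2.39 and 1.68 in acs-20, and 11.8, 7.34 and 10.8 in wild-type. The acs-20 effect on T19C9.8 was −0.02 in eat-2 mutants (adjusted p = 0.975) and −2.22 with eat-2 intact (adjusted p = 0.000576), an interaction of 2.2 (SE 0.35, adjusted p = 0.0203).

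Smaller shifts of both single mutants cancelled in the double mutant for 3 genes of no class. Y43F8B.3 had 19.1, 19.4 and 20.7 CPM in double mutants, 10.3, 10.6 and 9.23 in eat-2 worms, 8.03, 12.2 and 8.69 in acs-20, and 20.4, 18.6 and 17.9 in wild-type. Neither single mutant overlapped the double mutant or wild-type, and the interaction was 1.95 (SE 0.22, adjusted p = 0.000901). Its opposite-strand neighbour Y43F8B.2 had an interaction of 0.05 (adjusted p = 0.991). spp-23, a gene of the saposin-like family of small lipid-binding and antimicrobial proteins, moved the other way, with 28.6, 38.8 and 39.5 CPM in double mutants, 68.2, 57.1 and 70.1 in eat-2 worms, 62.6, 55.7 and 57.2 in acs-20, and 37.8, 36.1 and 40.0 in wild-type. spp-23 rose in each single mutant, and its interaction was −1.49 (SE 0.18, adjusted p = 0.00195). lgx-1 had 18.9, 18.5 and 22.5 CPM in double mutants, 12.3, 11.2 and 8.57 in eat-2 worms, 7.71, 13.9 and 12.5 in acs-20, and 15.7, 21.7 and 25.1 in wild-type, an interaction of 1.79 (adjusted p = 0.0366).

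The last pair differed most between the double mutant and eat-2. asg-1, a nuclear-encoded subunit g of the mitochondrial ATP synthase, had 215, 239 and 259 CPM in double mutants, 135, 124 and 138 in eat-2 worms, 164, 164 and 162 in acs-20, and 156, 167 and 157 in wild-type. Its interaction of 0.81 (SE 0.13, adjusted p = 0.0215) was the smallest of the 27, and it was the only one of 69 nuclear respiratory chain genes called; 55 of the 69 had a negative estimate. Y69H2.3 had 145, 161 and 105 CPM in double mutants, 37.6, 34.7 and 30.8 in eat-2 worms, 90.3, 113 and 90.7 in acs-20, and 55.2, 56.9 and 63.2 in wild-type. Its interaction was 1.24 (SE 0.21, adjusted p = 0.0297). Both genes were lowest in eat-2 with no overlap with other genotypes.

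Seen by which genotype stood apart, all 3 double-mutant libraries lay above the other 9 in 3 members (srw-85, asg-1 and idpp-12), as in 2.54% of all genes tested, and below them in 0 (2.54% of all genes). The eat-2 libraries lay above the others in 3 members, nhr-87, H10E21.1 and clec-52 (1.29% of all genes), and below them in 8, among them srw-85, C45B2.2 and asg-1 (1.43%). The acs-20 libraries were highest in 3, Y42G9A.3, aat-8 and F22F7.7 (1.81%), and lowest in 6, dod-24, F36A2.2, tnt-4, T19C9.8, myo-1 and D2024.4 (3.39%). Wild-type libraries were highest in 4, pud-1.2, ckb-2, myo-1 and F55G11.2 (2.38%), and lowest in 2, nhr-87 and Y42G9A.3 (2.27%). The interaction was computed from these same libraries, so nothing is read from these shares.

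The members differed in how far a call depended on 1 library. Of the 27, 7 were called in each of the 12 fits that left out 1 library: srw-85, dod-24, nhr-87, F36A2.2, Y42G9A.3, Y43F8B.3 and spp-23. aat-8 and myo-2 lost the call only without eat-2 replicate 3 (adjusted p = 0.0559 for each). The other 18 lost it in more fits, with adjusted p of up to 0.182 (idpp-11), and the number of genes called ranged from 8 without eat-2 replicate 3 to 150 without acs-20 replicate 2. All 27 were among the 150. In 18 members acs-20 replicate 2 was the highest acs-20 library, so leaving it out pushes their interaction up. There were 25 calls without eat-2 replicate 1 and 8 to 17 without each of the other libraries except acs-20 replicate 2 and wild-type replicate 3. Without wild-type replicate 3 there were 69 calls, 26 of them among the 27, and with both acs-20 replicate 2 and wild-type replicate 3 left out there were 299, which held all 27. No member changed direction in any of these fits.

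**Figure D4:**
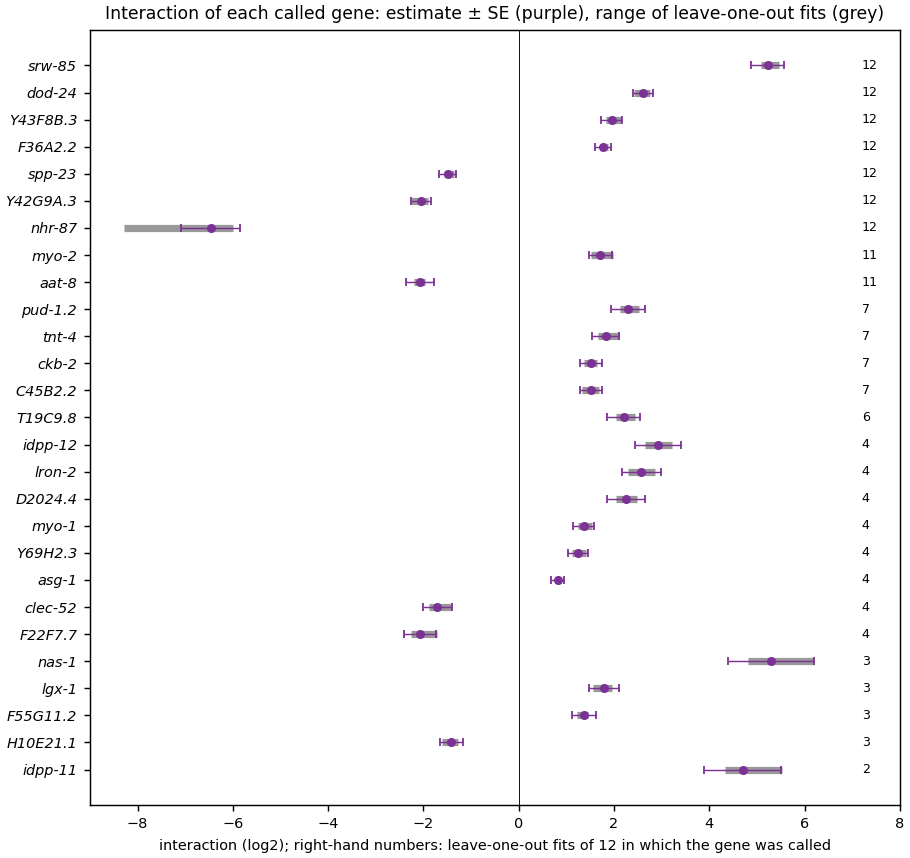
Interaction log2 fold change (horizontal axis) of the 27 members: the purple point and bar are the estimate and its SE from all 12 libraries, the grey bar is the range over the 12 fits that left out 1 library, and the number at the right counts the fits in which the gene was called. The ranges stay on 1 side of 0, while the number of fits with a call runs from 12 for srw-85 to 2 for idpp-11.

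Glutamine- and asparagine-rich genes of the abu and pqn families were among those that entered or left the calls with these libraries. The abu genes are tied to the lining of the pharynx. edgeR called none of 56 abu and pqn genes with all libraries, but on the same 12 libraries DESeq2 called 14, the fit with the stage covariate 14, the fit without robust dispersion 7, that without the filter 3 and that with the replicate block 2, each with a positive interaction. By edgeR 19 had a positive interaction and 1 a negative one at an unadjusted p under 0.05, a threshold that 680 and 374 of all 14390 genes passed. Chosen after its values were seen, abu-14 had 174, 119 and 148 CPM in double mutants, 65.1, 52.6 and 45.8 in eat-2 worms, 55.2, 114 and 53.3 in acs-20, and 145, 179 and 98.7 in wild-type. Its interaction was 2.35 (SE 0.43, adjusted p = 0.068). abu-11 had 40.3, 22.1 and 36.5 CPM in double mutants, 4.22, 4.77 and 3.49 in eat-2 worms, 10.5, 24.3 and 4.91 in acs-20, and 50.5, 53.3 and 14.7 in wild-type, with an interaction of 4.55 (adjusted p = 0.0952). In each, acs-20 replicate 2 lay above and wild-type replicate 3 below its own genotype, as for col-19. In 6 members (Y43F8B.3, lron-2, F22F7.7, idpp-12, nas-1 and idpp-11) acs-20 replicate 2 was likewise the highest acs-20 library and wild-type replicate 3 the lowest wild-type library, and in 12 further members acs-20 replicate 2 was the highest of its genotype. All 27 members were still called with both libraries left out. For those of the 6 with a positive interaction, leaving out these libraries pushes the interaction up. Keeping the call therefore does not test their dependence on the 2 libraries. F22F7.7 has a negative interaction, which is pushed to a smaller size, and it kept its call. With both libraries left out 16 of the 56 were called, without acs-20 replicate 2 alone 14, without wild-type replicate 3 alone 13, and in the other 10 fits without 1 library none. edgeR with all libraries likewise called none of 34 nematode-specific peptide genes, with a median of 0.66, and none of 128 collagen genes outside the furrow set, with a median of 0.32. At an unadjusted p under 0.05 there were 11 positive peptide genes and 21 positive and 5 negative collagen genes. DESeq2 and the fit without the filter each called 3 of the collagen genes, and the replicate block 1. For the same genes the stage covariate gave 14, leaving out acs-20 replicate 2 gave 21 and leaving out both libraries 48. Of the peptide genes, DESeq2 and the fit without the filter each called 2, and the stage covariate gave 1. Leaving out acs-20 replicate 2 gave 2, wild-type replicate 1 gave 1, wild-type replicate 3 gave 1, and leaving out both libraries 6. Each of these calls was positive. The list counts are to be read beside the calls over all genes tested. Of 14390 genes, DESeq2 called 125, the stage covariate 116, the replicate block 56 and the fit without robust dispersion 42. The fit without the filter called 99 of 24830. Leaving out acs-20 replicate 2 gave 150 of 14689, wild-type replicate 3 gave 69 of 14631, and both gave 299 of 14622.

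**Figure D5:**
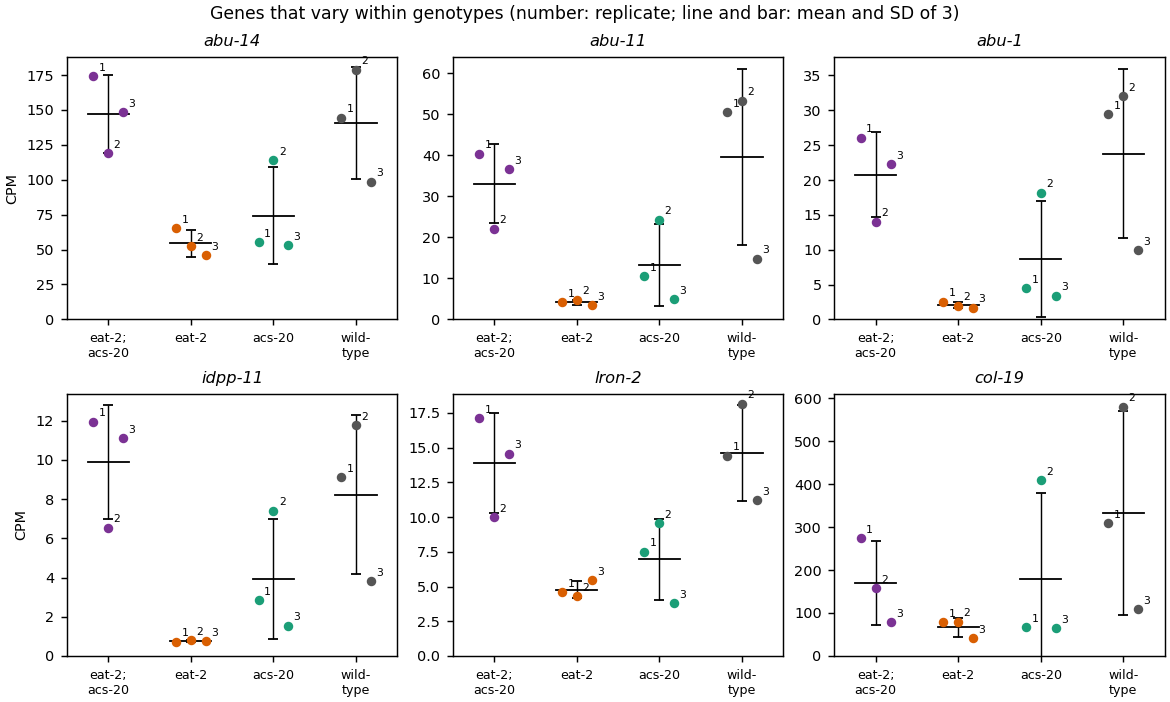
CPM in each library, numbered by replicate, for abu-14, abu-11, abu-1, idpp-11, lron-2 and col-19, by genotype (eat-2; acs-20, eat-2, acs-20 and wild-type, left to right), with the line and bar giving the mean and SD of 3. In each panel acs-20 replicate 2 is the highest acs-20 library and wild-type replicate 3 the lowest wild-type library.

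Of 17 epidermal antimicrobial peptide genes, a family known to respond to cuticle damage, 11 rose and 0 fell in double mutants relative to eat-2, and 11 rose and 1 fell in acs-20 relative to wild-type. The eat-2 mutation raised 3 of them in acs-20 mutants and 2 with acs-20 intact. edgeR with all libraries called none in the interaction, with a median of −0.19 and with 2 positive and 3 negative genes at an unadjusted p under 0.05; DESeq2 called 1, as did the fits without acs-20 replicate 2 and without both libraries. nlp-29, the usual reporter of that response, had 82.3, 67.4 and 45.8 CPM in double mutants and 6.997, 6.98 and 10.2 in eat-2 worms, against 58.0, 71.1 and 61.8 in acs-20 and 4.87, 6.97 and 6.72 in wild-type. It rose with the acs-20 mutation by 3.00 in eat-2 mutants (adjusted p = 1.15e-05) and by 3.36 with eat-2 intact (adjusted p = 4.96e-06), and the interval of the interaction ran from −1.09 to 0.37. The 6 vitellogenin genes, which encode yolk proteins, fell with the eat-2 mutation in both backgrounds, 6 of 6 in each, and had a median eat-2 effect of −5.25 with acs-20 intact. In the interaction edgeR and DESeq2 called 0 of them with all libraries, 2 were positive at an unadjusted p under 0.05, and 4 were called with acs-20 replicate 2 and wild-type replicate 3 left out. vit-2 had an interaction of 1.82 (SE 0.90, adjusted p = 0.722) with an interval of −0.27 to 3.90, too wide to exclude a large difference. With those libraries left out, vit-2 passed with an interaction of 3.03 (adjusted p = 0.00806). For vit-2, acs-20 replicate 2 was the highest acs-20 library (4240 CPM against 1279 and 1069). Wild-type replicate 3 was the lowest wild-type library (1149 CPM against 2575 and 3203). The summed vitellogenin levels had the same order. Leaving these libraries out therefore pushes the interaction up, so the vit-2 pass and the 4 calls are no separate test of it.

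A pair of lipid genes lay just outside the threshold. fat-5, a delta-9 fatty acid desaturase, had 25.5, 24.2 and 18.7 CPM in double mutants, 23.3, 25.5 and 16.5 in eat-2 worms, 20.8, 19.05 and 18.1 in acs-20, and 8.09, 7.72 and 8.02 in wild-type. All mutant libraries lay above wild-type, and the interaction was −1.21 (SE 0.24, adjusted p = 0.0634), though fat-5 and far-3 both passed with DESeq2 and without the filter. far-3, a fatty acid and retinol binding protein gene, had 504, 389 and 362 CPM in double mutants, 15.2, 13.5 and 18.3 in eat-2 worms, 378, 426 and 349 in acs-20, and 6.95, 7.15 and 6.62 in wild-type. Its interaction was −1.06 (SE 0.21, adjusted p = 0.0634). All 16 desaturase and elongase genes tested had a negative estimate, with a median of −0.27, against 7511 negative estimates among all 14390 genes. At its main settings with all libraries, edgeR called none of the 16, with 3 negative at an unadjusted p under 0.05. DESeq2, the fit without the filter, the replicate block and the stage covariate each called 1. So did the fits without eat-2 replicate 3, without acs-20 replicate 2, and without both acs-20 replicate 2 and wild-type replicate 3. Each of these calls was negative. With the stage covariate 3 of the 16 estimates were positive. The remaining marker genes had wider or smaller estimates that did not pass: clec-70 had −1.18 (adjusted p = 0.645), fat-7 −0.60 (adjusted p = 0.658), the glutathione S-transferase gene gst-4 1.04 (adjusted p = 0.139) and the mitochondrial chaperone gene hsp-6 −0.29 (adjusted p = 0.752). The chaperone hsp-4, the transporter hmit-1.1, the acyl-CoA dehydrogenase acdh-1 and the RNA tts-1 had estimates between −0.08 and 0.10. The intervals were −0.41 to 0.37 for acdh-1 and −0.32 to 0.51 for hsp-4. They were wider for hmit-1.1 (−0.89 to 0.73) and tts-1 (−0.76 to 0.93).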

How the data were processed

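The deposited files hold raw counts per gene, 1 file per library; per the labels, total RNA came from whole worms and libraries followed standard Illumina protocols. Tools listed in the submitters' processing notes were TopHat2, HTSeq, DESeq2 and FastQC 0.11.5; build, annotation and strand setting are not given in these sources, so no coordinates or sequences are given. Rows naming no gene were left out (reads assigned to no feature were 44.1% to 46.5% of each library's total). Of 46739 gene IDs, 43720 matched a symbol. Genes passing filterByExpr by genotype at defaults (minimum count 10; 99.8% to 99.9% of counts kept) were tested with edgeR 4.0.16 in R 4.3.3 by the quasi-likelihood test with robust fitting, TMM scaling and 4 genotype means (8 residual degrees of freedom), with Benjamini-Hochberg adjustment over all 14390 genes. Adjusted p-values come from that test unless another is named. Fold changes are log2; levels are TMM-scaled CPM; intervals of an interaction are 95%, from the SE with 8 degrees of freedom. Counting intervals cover counting error only. Shapes used log2 CPM with a prior count of 2. Genes named were those called with an average log2 CPM of at least 0, up to 6 per shape and direction (at most 2 per family or known only by a sequence name), up to 3 called members per list, and a set of marker genes. Members and gene lists were chosen with earlier results of these data known. Alternatives were DESeq2 1.42.0 with its size factors, RLE scaling, no filter, no robust fitting, a replicate block, leaving out each library, and, chosen after seeing the data, a stage covariate and leaving out 2 libraries together. The fits were tested on simulated data.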

Additional observations from a re-analysis of the deposited data

Results flagged for a closer look

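The interaction is itself the test of whether the eat-2 effect differs between acs-20 mutants and worms with acs-20 intact, so each of the 27 members is listed here with its log2 value from edgeR. The eat-2 effect was more positive in acs-20 mutants for nas-1 (5.30), srw-85 (5.22), idpp-11 (4.70), idpp-12 (2.92), dod-24 (2.61), lron-2 (2.57), pud-1.2 (2.29), D2024.4 (2.26), T19C9.8 (2.2), Y43F8B.3 (1.95), tnt-4 (1.83), lgx-1 (1.79), F36A2.2 (1.77), myo-2 (1.71), ckb-2 (1.52), C45B2.2 (1.51), F55G11.2 (1.37), myo-1 (1.37), Y69H2.3 (1.24) and asg-1 (0.81). It was more negative in acs-20 mutants for nhr-87 (−6.46), F22F7.7 (−2.07), aat-8 (−2.07), Y42G9A.3 (−2.04), clec-52 (−1.71), spp-23 (−1.49) and H10E21.1 (−1.41).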

How the results depend on the processing

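The 27 calls were also 27 with RLE scaling. They were 99 without the filter, 56 with the replicate block, 42 without robust fitting, 125 with DESeq2, 116 with a stage covariate and 299 with 2 libraries left out. These sets held all 27 members, except 26 without the filter. Leaving out 1 library gave 8 to 150. Whether the replicate numbers pair the samples was not settled. By deviations from the genotype mean, same-numbered pairs had r of −0.09 to 0.43 (mean 0.13). Differently numbered pairs had r of −0.468 to 0.386 (mean −0.0649). Of 12 samples, 7 correlated best with a sample of their own number. The eat-2 effect with acs-20 intact gave 1767 calls with the stage covariate and 576 to 1272 without 1 library; in acs-20 mutants, 919 to 2026 without 1 library. The acs-20 effect with eat-2 intact gave 539 without the filter, 482 with DESeq2, 630 with the stage covariate and 161 to 345 without 1 library. In eat-2 mutants it gave 579 without the filter, 653 with the block, 542 with DESeq2, 621 with 2 libraries left out and 154 to 434 without 1. The r of the eat-2 effects was 0.174 without the filter, 0.434 with 2 libraries left out and 0.492 to 0.62 without 1; that of the acs-20 effects was 0.091, 0.184 and 0.249 to 0.461. The share of called genes with the same sign on the linear scale was 93.75% to 100% without 1 library. A shape rule with a 1.5-fold shift in place of the 2-fold shift left 1 gene in no class. Of 513 values of the called genes, 374 kept their call, 139 lost it and 0 reversed. Estimates near 0 that changed sign, none called, were those of acs-20 (0.0308 with the stage covariate, −0.234 to 0.0186 without 1 library), hmit-1.1 (0.0505 with 2 libraries left out, −0.473 to 0.122 without 1), hsp-4 (−0.0329 with 2 left out), acdh-1 (0.0015 without the filter, 0.104 with the stage covariate, −0.121 to 0.0484 without 1) and tts-1 (−0.0204 with 2 left out, −0.175 to 0.278 without 1). The causes were not tested.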
